A study of Mus musculus with 18 samples.

Results

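Ligand, receptor and target genes of the Notch pathway were followed in ovaries of Elavl2 knockout mice, 10 genes in all: the ligand genes Jag1 and Jag2, the receptor genes Notch1, Notch2 and Notch3, the receptor-modifying enzyme gene Lfng, and the target genes Hes1, Hes5, Hey1 and Hey2. They were picked by gene name among the 41174 non-control probes of the arrays, which gave 15 probes, and 14 of these passed the filter on dim probes. After that filter 19294 genes were tested, the 10 Notch genes among them. RNA came from whole XX gonads of Elavl2 knockout and wild type mice at the embryonic stages E15.5 and E17.5 (days of gestation) and at birth, postnatal day 0 (P0). The 6 groups, E15.5 knockout, E15.5 wild type, E17.5 knockout, E17.5 wild type, P0 knockout and P0 wild type, held 3 samples each, for 18 arrays in all. Elavl2 codes for a protein of the ELAV family that binds RNA. The labels give neither the deleted part of the gene nor the strain, nor do they say whether each sample was an animal of its own. The p-values therefore cover the spread among the samples given, which may be technical.

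Notch receptors are cleaved when a ligand of the Jagged or Delta type on a neighbouring cell binds them, and the freed intracellular part joins the DNA-binding protein RBPJ to switch on target genes such as those of the Hes and Hey families. Fringe enzymes, among them the product of Lfng, add sugars to the receptor and change which ligand it answers to. In the mouse ovary around birth, nests of germ cells break up into primordial follicles, and Notch signalling between germ cells, a source of JAG1, and pregranulosa cells, which carry NOTCH2, has been linked to that step.

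Signals are log2 values relative to the 75th percentile of the same array, so that 0 is that percentile, and a change is knockout minus wild type on the log2 scale. Errors after ± are SDs over 3 samples unless named SE, the standard error of the fit. A gene was called when its adjusted p in limma, adjusted over all 19294 genes, was under 0.05. Replicate arrays correlated at r of 0.965 to 0.9948 across genes. The arrays were scanned in 2 runs on 7 slides: run A held all E15.5 arrays and replicate 3 of both E17.5 groups, and run B the rest. At E15.5 and P0 no slide carried both genotypes of the stage, so slide and genotype cannot be told apart there. The same holds for the run B arrays at E17.5, wild type on slide 6 and knockout on slide 7. Both run A arrays of E17.5 were on slide 3. All P0 arrays were of run B. The Elavl2 signal averaged 2.00 ± 0.12 in E15.5 knockout and 2.11 ± 0.16 in E15.5 wild type ovaries, 2.65 ± 0.41 and 3.51 ± 0.14 in E17.5 knockout and wild type ovaries, and 3.16 ± 0.20 and 4.52 ± 0.06 in P0 knockout and wild type ovaries. Since the deleted part is not given, this probe does not check the genotype labels. The ovary markers Foxl2, Wnt4 and Fst of pregranulosa cells and Ddx4 and Dazl of germ cells were well above background on all 18 arrays.

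At P0, 5 of the 10 Notch genes were called between knockout and wild type ovaries, against 34.5% of all genes tested. The ligand gene Jag1 and the target genes Hey1 and Hey2 were lower in knockout ovaries, and the target genes Hes1 and Hes5 were higher. Lower calls made up 16.1% and higher calls 18.3% of all genes. The median change of the 10 genes was 0.05, beside -0.0009 for all genes. At E15.5 limma called 0 of the 10, against 1.62% of all genes, and at E17.5 0, against 4.15%. At each of these stages 1 of the 10, Hes5, had an unadjusted p under 0.05. In whole ovaries, fewer cells of a type and less RNA per cell cannot be told apart in any of these values.

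**Figure D1:**
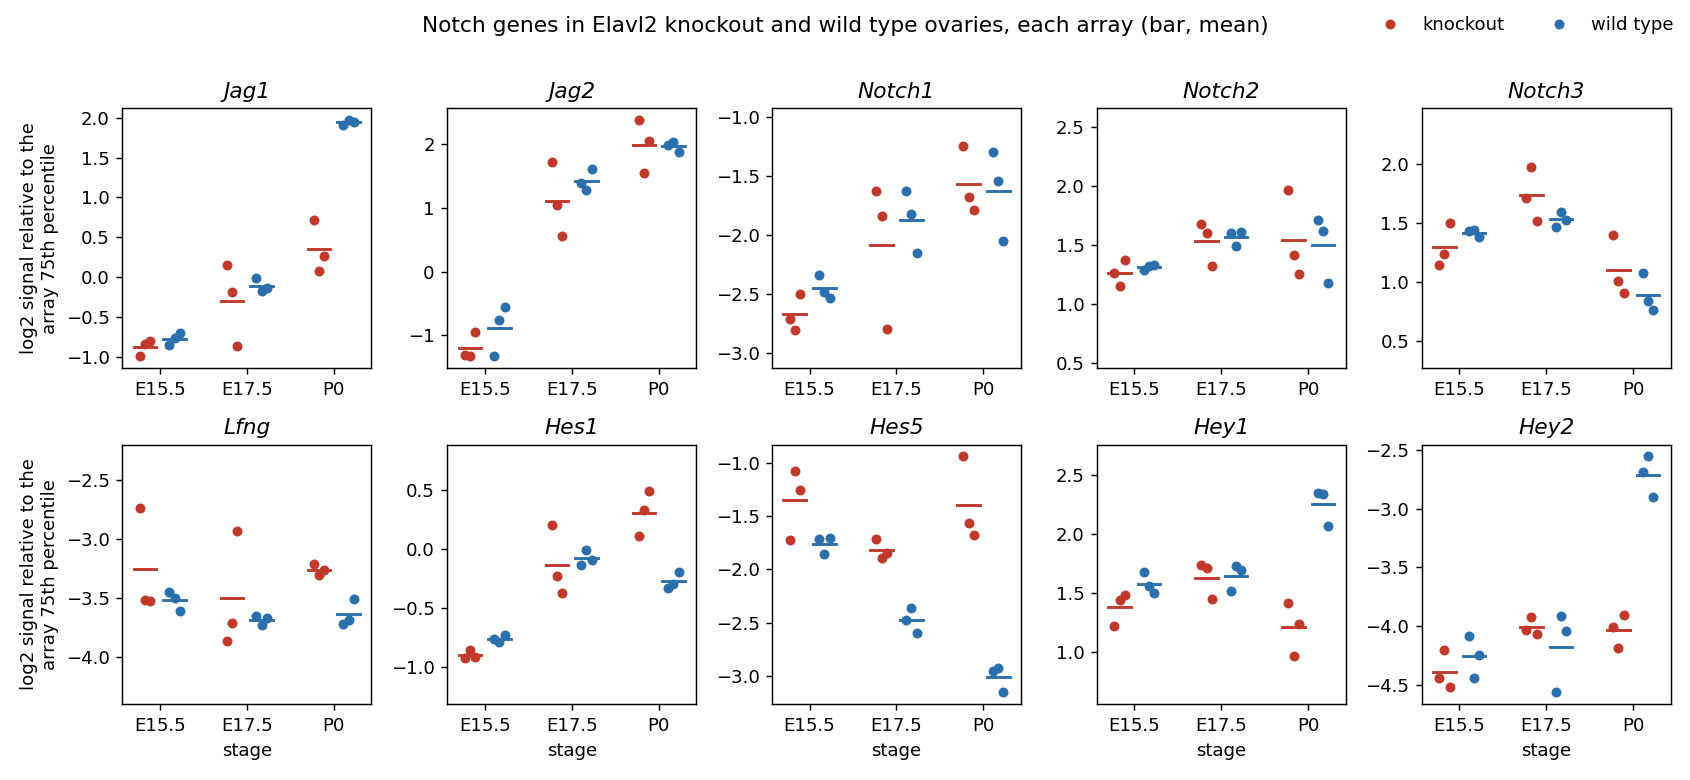
Log2 signal of each Notch gene (brightest probe, y axis, 0 is the array's 75th percentile) on every array at E15.5, E17.5 and P0, with knockout points left of wild type points and a bar at each group's mean. At P0 the knockout points of Jag1, Hey1 and Hey2 lie below all wild type points and those of Hes1, Hes5 and Lfng above them. Levels of different genes are not comparable, since each probe has its own response.

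Jag1 was the called gene with the smallest adjusted p among the 10 at P0. Its probe, on the minus-strand gene at chr2:136907433-136907492 (build mm9, as the files give it), read 0.72, 0.07 and 0.27 in knockout replicates 1 to 3, against 1.90, 1.97 and 1.95 in wild type. All knockout samples were below all wild type samples, and the wild type samples lay closer together than the knockout ones. The means were 0.35 ± 0.33 in knockout and 1.94 ± 0.03 in wild type ovaries, a change of -1.59 (SE 0.17, 95% interval -1.96 to -1.21, adjusted p = 3.77e-05). The knockout signal was thus 0.333 times the wild type signal.

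Jag2, the other Jagged ligand gene, read 2.38, 1.55 and 2.04 in P0 knockout ovaries, against 1.99, 2.03 and 1.88 in wild type. Knockout samples lay on both sides of the wild type ones. The change was 0.02 with a 95% interval of -0.57 to 0.61 (adjusted p = 0.954), so changes inside that interval are not excluded.

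None of the 3 receptor genes was called at P0 by its brightest probe. Notch1 read -1.25, -1.68 and -1.79 in knockout ovaries, against -1.29, -1.54 and -2.05 in wild type. Notch2, the receptor gene linked to pregranulosa cells, read 1.96, 1.42 and 1.25 in knockout, against 1.71, 1.62 and 1.18 in wild type. In both genes the groups overlapped, with changes of 0.06 (95% interval -0.37 to 0.48) for Notch1 and 0.04 (95% interval -0.33 to 0.41) for Notch2. Notch3, known from vascular smooth muscle and pericytes, read 1.40, 1.01 and 0.91 in knockout and 1.08, 0.84 and 0.77 in wild type. Its groups overlapped, and its change of 0.21 (SE 0.14) had an adjusted p of 0.252. With arrays scaled by their median the Notch3 change was 0.35 and the adjusted p 0.0461.

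Lfng read -3.21, -3.31 and -3.27 in P0 knockout ovaries, against -3.72, -3.69 and -3.51 in wild type. Every knockout sample was above every wild type sample, but the change of 0.38 (SE 0.20) was not called (adjusted p = 0.15). It was called when only the P0 arrays entered the fit (adjusted p = 0.03) and without E15.5 knockout replicate 1 (adjusted p = 0.0476).

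The 4 target genes encode basic helix-loop-helix repressors, and at P0 Hes1 and Hes5 were higher and Hey1 and Hey2 lower in knockout ovaries. Hes5 read -0.94, -1.56 and -1.68 in knockout ovaries, against -2.96, -2.93 and -3.15 in wild type. The groups lay far apart, with knockout replicate 1 the highest. The means of -1.39 ± 0.40 in knockout and -3.01 ± 0.12 in wild type differed by 1.62 (SE 0.18, 95% interval 1.22 to 2.02, adjusted p = 4.89e-05), or 3.07-fold.

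Hes1 moved the same way by less. It read 0.10, 0.32 and 0.49 in P0 knockout ovaries, against -0.34, -0.30 and -0.20 in wild type, with no overlap. The change was 0.58 (SE 0.12, 95% interval 0.33 to 0.84, adjusted p = 0.00241).

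Hey1 read 1.42, 0.97 and 1.24 in P0 knockout ovaries, against 2.35, 2.34 and 2.07 in wild type. Hey2, a dimmer probe that was still well above background on every array, read -4.01, -4.19 and -3.91 in knockout, against -2.69, -2.56 and -2.90 in wild type. For both genes all knockout samples were below all wild type samples. The changes were -1.04 (SE 0.13, adjusted p = 7.55e-05) for Hey1 and -1.32 (SE 0.16, adjusted p = 7.94e-05) for Hey2, so that the knockout signal was 0.486 and 0.401 times the wild type signal. With normexp background correction and quantile normalization the Hey2 change was -0.53, still called.

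**Figure D2:**
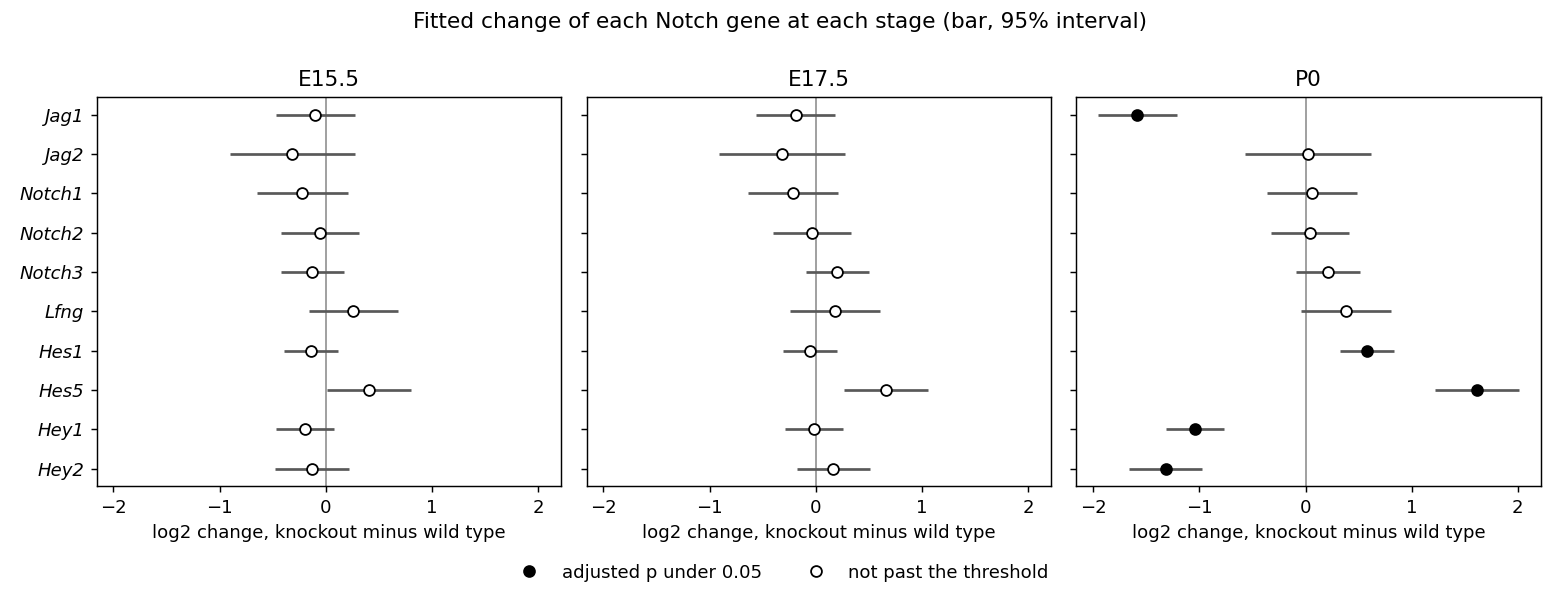
Fitted log2 change, knockout minus wild type (x axis), with its 95% interval for each of the 10 Notch genes at E15.5, E17.5 and P0. Filled points passed an adjusted p of 0.05 over all genes: 5 genes at P0, and no gene at the earlier stages.

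Hes5 and Hey2 are shown with their promoters because they moved in opposite directions while both windows carry matches to the sequence RBPJ is known to bind. The windows run from 250 bases before to 50 bases after the start of the gene, 5′ to 3′ on the gene's strand, as given by RefSeq for GRCm38.p6. Hes5 lies on the plus strand at chr4:154960673-154960972 and Hey2 on the minus strand at chr10:30842734-30843033. Capitals mark GTGGGAA, or its reverse complement TTCCCAC where the match is on the other strand.
Hes5: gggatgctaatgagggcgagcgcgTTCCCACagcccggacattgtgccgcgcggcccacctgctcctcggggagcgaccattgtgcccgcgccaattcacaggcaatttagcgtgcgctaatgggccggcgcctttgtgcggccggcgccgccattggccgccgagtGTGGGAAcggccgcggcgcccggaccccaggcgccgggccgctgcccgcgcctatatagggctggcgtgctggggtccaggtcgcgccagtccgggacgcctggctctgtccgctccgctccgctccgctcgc
Hey2: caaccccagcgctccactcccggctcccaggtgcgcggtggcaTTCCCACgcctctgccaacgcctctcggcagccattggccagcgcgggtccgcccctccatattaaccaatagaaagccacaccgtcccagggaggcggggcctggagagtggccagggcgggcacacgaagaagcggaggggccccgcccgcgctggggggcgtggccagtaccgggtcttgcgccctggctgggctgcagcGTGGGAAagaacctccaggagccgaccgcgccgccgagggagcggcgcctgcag
In Hes5 the matches begin at base -226 (minus strand) and base -83 (plus strand) relative to the start, and in Hey2 at base -207 (minus strand) and base -4 (plus strand). Of the 8 Notch genes with a window in the table, Lfng was the other one with a match, so that 3 of 8 held GTGGGAA, beside 6.38% of 32851 windows. The same 3 held the shorter TGGGAA, which lies inside GTGGGAA, beside 25.6% of windows. Jag1, Jag2, Notch1, Notch2 and Notch3 held no match to these letters in this window, and Hes1 and Hey1 were not in the table. Both strands were searched. Matches of these letters describe the sequence and do not show binding.

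At E15.5 the changes of the 10 genes ran from -0.32 (Jag2) to 0.40 (Hes5), with a median of -0.13 beside 0.0075 for all genes. Hes5 read -1.72, -1.08 and -1.26 in knockout, against -1.71, -1.85 and -1.70 in wild type, and its groups overlapped (adjusted p = 0.327). With array weights the Hes5 change was 0.54 and was called (adjusted p = 0.0405). Hes1 and Hey1 were below wild type in every E15.5 knockout sample, with changes of -0.14 and -0.20 and adjusted p of 0.662 and 0.521.

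At E17.5 the changes ran from -0.32 (Jag2) to 0.66 (Hes5), with a median of -0.03 beside 0.05 for all genes. Hes5 read -1.71, -1.89 and -1.84 in knockout ovaries, against -2.48, -2.36 and -2.60 in wild type, without overlap, as at P0 and unlike E15.5. The change of 0.66 (SE 0.18) missed the threshold (adjusted p = 0.0621). It passed with normexp correction (adjusted p = 0.047), a stricter filter that asks for a signal well above background on all 18 arrays (0.0435), trended and robust moderation (0.042), and without E15.5 knockout replicate 1 (0.0399) or P0 knockout replicate 1 (0.0223). With the replicate number as a block, 0 of the 10 genes were called at E17.5, as without it.

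E17.5 knockout replicate 3, of run A, stood apart from the other E17.5 knockout samples in several of these genes. In Jag1 it read -0.86, against 0.16 and -0.18 in the other knockout samples, and in Notch1 -2.79, against -1.63 and -1.83. In Lfng it was the high sample, at -2.93, against -3.87 and -3.71. Within run A, where each genotype has 1 array, the differences were -0.73 for Jag1, -1.05 for Jag2, -0.64 for Notch1 and 0.74 for Lfng. Within run B they were 0.08, 0.05, -0.0038 and -0.10 for the same genes. Hes5 differed by 0.75 within run A and 0.61 within run B. The other 5 genes differed by -0.29 to -0.01 within run A and by 0.06 to 0.31 within run B.

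The step between stages was followed in each genotype, with the run as a term in the fit, so that a fitted step can differ from the difference of the means. All E15.5 arrays were of run A and all P0 arrays of run B, so the run term rests on the E17.5 arrays alone. There run A held only replicate 3 of each genotype, and knockout replicate 3 stood apart in several genes. Wild type Notch1, for example, averaged -2.45 at E15.5 and -1.87 at E17.5, with a fitted step of 0.09. From E15.5 to E17.5, 3 of the 10 genes were called in wild type ovaries, against 26.4% of all genes, and 2 in knockout ovaries, against 21.7%. Jag2 was 2.13 higher at E17.5 than at E15.5 in each genotype (adjusted p = 0.00073 in knockout and 0.000788 in wild type). Hes1 was 0.64 higher in knockout (adjusted p = 0.00804) and 0.55 higher in wild type ovaries (adjusted p = 0.0147). Hes5 was lower in wild type (-0.79, adjusted p = 0.0214), and its step of -0.54 in knockout was not called (adjusted p = 0.102).

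These first steps changed when single arrays were left out. Without E17.5 wild type replicate 3, 0 genes were called in wild type ovaries and 1, Jag2, in knockout, and the wild type steps were then 1.39 for Jag2 (adjusted p = 0.0889) and 0.32 for Hes1 (adjusted p = 0.37). The wild type Hes5 call also ended without E15.5 wild type replicate 1 (adjusted p = 0.0523) or 3 (adjusted p = 0.0501), with steps of -0.77. Without slide 3, 6 genes were called in knockout and 5 in wild type ovaries, Jag1 and Notch1 among them in each. Slide 3 held both run A arrays of E17.5, so that fit had no run term. Its steps therefore also hold any difference between runs. With arrays scaled by their median, the median of all genes moved by -0.18 in knockout and -0.21 in wild type, and the Hes1 step was then called in neither genotype (adjusted p = 0.0795 in knockout and 0.142 in wild type).

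From E17.5 to P0, 5 of the 10 genes were called in wild type ovaries, against 43.3% of all genes. Jag1 was 1.90 higher at P0 (SE 0.18, adjusted p = 1.21e-05), Hey2 1.48 higher and Hey1 0.57 higher. Notch3 (-0.69) and Hes5 (-0.57) were lower. In wild type ovaries the Hes5 group means, taken without the run term, were -1.76, -2.48 and -3.01 over E15.5, E17.5 and P0. The last Hes5 step had an adjusted p of 0.0306, and that call ended with normexp correction (0.0757) and without E17.5 wild type replicates 1 or 2 or P0 wild type replicates 1 or 3 (0.0525 to 0.116).

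In knockout ovaries 5 of the 10 genes were called between E17.5 and P0, against 37.2% of all genes, and they were in part other genes. Notch3 was lower (-0.69), as in wild type, and Hey1 was lower (-0.46), where wild type was higher by 0.57. Jag1 was 0.50 higher (adjusted p = 0.0466), Jag2 0.79 higher (adjusted p = 0.0478) and Hes1 0.38 higher (adjusted p = 0.0309). The Jag1 call ended in 25 of 35 alternatives, the Jag2 call in 23, the Hes1 call in 11 and the Hey1 call in 5. With the replicate number as a block the Hes1 and Hey1 calls ended (adjusted p = 0.0795 and 0.0548), and with slide in place of run in the fit Hey1 had a step of -0.14 (adjusted p = 0.78). The Hey1 call also ended without E17.5 knockout replicates 1 or 2 or P0 knockout replicate 2, and without E17.5 knockout replicate 2 only 1 of the 10 genes, Notch3, was called. Hey2 did not pass, with a step of -0.01 (95% interval -0.38 to 0.36), and Hes5 did not, with 0.39 (adjusted p = 0.138). The Hes5 group means in knockout ovaries, again without the run term, were -1.35, -1.82 and -1.39 over the 3 stages.

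Whether the genotype difference itself changed between stages was tested by the interaction of stage and genotype. Between E15.5 and P0 it was called for 5 of the 10 genes, against 19.9% of all genes: Jag1 (-1.49, SE 0.24, adjusted p = 0.0017), Hey2 (-1.19, adjusted p = 0.00394), Hey1 (-0.85, adjusted p = 0.00648), Hes5 (1.21, adjusted p = 0.00701) and Hes1 (0.72, adjusted p = 0.0105). These 5 calls held in all 34 alternatives other than the 2-fold threshold. Between E17.5 and P0 the same 5 genes were called, against 10.4% of all genes, with Hes1 at an adjusted p of 0.0301 and Hes5 at 0.0344. With the replicate number as a block, 1 of the 5, Hey2, was called. Without E17.5 wild type replicates 2 or 3, E17.5 knockout replicates 2 or 3, or P0 wild type replicates 1 or 2, 3 genes were called and the Hes1 and Hes5 calls ended. Between E15.5 and E17.5 limma called 0 of the 10, against 0.306% of all genes, and 0 had an unadjusted p under 0.05.

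Ordered by group mean across the 6 groups, with no run term, Jag1 was highest in P0 wild type ovaries, at 1.94. It was followed by P0 knockout at 0.35, E17.5 wild type at -0.11 and E17.5 knockout at -0.29. E15.5 wild type at -0.77 and E15.5 knockout at -0.87 came last. The E15.5 arrays were all of run A and the P0 arrays all of run B. Orders across stages therefore also hold any difference between runs. The P0 knockout samples and the E17.5 knockout samples overlapped, and so did the genotypes at E17.5 and at E15.5. Hey2 had P0 wild type ovaries at -2.72 and the other 5 groups between -4.39 and -4.01. Hey1 had P0 wild type highest at 2.25 and P0 knockout lowest at 1.21, with the 4 embryonic groups between 1.39 and 1.65. Hes5 had P0 wild type lowest at -3.01.

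Several genes were read by more than 1 probe, and the probes did not always give the same picture. The second Jag1 probe was dim, above background on 13 of 18 arrays, and its P0 change was -0.71 (adjusted p = 0.0733 over all probes), with every knockout sample below every wild type sample. It read -4.58, -5.27 and -4.45 in knockout, against -3.96, -4.01 and -4.18 in wild type. The second Notch2 probe read -3.93, -4.41 and -4.41 in P0 knockout, against -3.52, -3.73 and -4.10 in wild type, with a change of -0.47 that was called (adjusted p = 0.0293). The groups of that probe overlapped, the brightest Notch2 probe had a change of 0.04, and the third, dim one a change of -0.65 (adjusted p = 0.261), so the direction for Notch2 depends on the probe. The second Notch1 probe had a change of 0.27 (adjusted p = 0.356). The second Lfng probe was above background on 6 of 18 arrays and was not tested.

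The rest of the pathway was read from a list of 63 other genes, of which 60 were measured. At P0, 18 were higher and 7 lower in knockout ovaries and 35 were not called, 41.7% against 34.5% of all genes, with a median change of 0.0022. With arrays scaled by their median, which moved the median of all genes by 0.14 and the share of higher calls among all calls to 73.4%, against 53.2%, the split was 24 higher and 4 lower. Without P0 wild type replicate 2, 15 of the 60 were called, and with the replicate number as a block 12.

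The corepressor gene Tle3, of the Groucho family that Hes proteins recruit, had the largest change of the list at P0, at 1.68 (adjusted p = 1.78e-06). The DNA-binding partner gene Rbpj was 0.56 higher (adjusted p = 0.000567) and the coactivator gene Maml1 0.60 higher in knockout ovaries. Of the Delta-type ligand genes, Dll1 was 0.81 higher (adjusted p = 0.000843), Dll3 was lower (-0.84, adjusted p = 0.0474), and Dll4 had a change of 0.08 (adjusted p = 0.642). The receptor gene Notch4 was 0.21 higher (adjusted p = 0.0296). Dlk1, a ligand gene that lacks the Delta binding domain, was 0.58 higher, and Dtx2, of the Deltex ubiquitin ligase family, was lower (-0.72). The other measured Hes and Hey genes of the list, added here after their values were seen, were Heyl, which was lower (-0.69, adjusted p = 0.000422), and Hes2 and Hes6, which were not called (-0.33 and -0.02, adjusted p = 0.424 and 0.794).

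Before birth few of these 60 genes were called. The 5 genes Dll1, Dll3, Dll4, Notch4 and Rbpj had changes of -0.52 to 0.17 at E15.5 and -0.54 to 0.17 at E17.5, and limma called none of them there. Both low ends were Dll3, where E15.5 knockout replicate 2 read -2.89, against -1.41 and -1.24 in the other knockout samples. At E17.5 every Dll3 knockout sample (-1.84, -1.52 and -1.92) was below every wild type sample (-1.22 in each). At E15.5 Dtx1 was lower (-0.35), and that was the 1 call of the list (1.67%, against 1.62% of all genes), which ended without any of 7 single arrays: E15.5 wild type replicates 1, 2 and 3, E15.5 knockout replicates 1 and 3, E17.5 knockout replicate 2 and P0 wild type replicate 2. At E17.5, 4 of the 60 were called (6.67%, against 4.15% of all genes): Tle3 was 0.53 higher, and Hes6 (-0.41), Fbxw7 (-0.40) and Kat2a (-0.26) were lower in knockout ovaries. With the replicate number as a block, 0 of these 4 were called, and without E17.5 wild type replicates 1, 2 or 3 or E17.5 knockout replicates 2 or 3, 1 gene was called.

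The wider list was also read between stages. At E17.5 against E15.5, 7 were higher and 2 lower in knockout ovaries (15%, against 21.7% of all genes), and 9 higher and 4 lower in wild type (21.7%, against 26.4% of all genes). With arrays scaled by their median these splits turned to 3 and 6 in knockout and 4 and 11 in wild type. The corepressor gene Tle1 was higher in both genotypes, by 0.93 in knockout and 0.82 in wild type, and so was the acetyltransferase gene Kat2a, by 0.32 in knockout and 0.56 in wild type. In knockout Dlk1 was 0.63 higher and Fbxw7, a ubiquitin ligase gene that marks the freed Notch part for breakdown, lower (-0.54). In wild type the gamma-secretase subunit gene Psenen was 0.45 higher.

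At P0 against E17.5, 11 were higher and 10 lower in knockout ovaries (35%, against 37.2% of all genes), and 15 higher and 18 lower in wild type (55%, against 43.3% of all genes). With arrays scaled by their median the splits were 6 and 9 in knockout and 8 and 24 in wild type. In knockout Tle1 was 0.88 higher, and Neurl1b (-0.91), Itch (-0.58), both ubiquitin ligase genes, and the deacetylase gene Hdac1 (-0.47) were lower. In wild type Dner (2.03), Dtx2 (0.74) and Psen2 (0.71) were higher and Mib2, a ubiquitin ligase gene, lower (-0.52). Notch4 was lower in both genotypes (-0.30 in knockout and -0.44 in wild type), while Dll1 (-0.73) and Rbpj (-0.33) were lower in wild type ovaries, where the knockout steps of 0.06 and 0.07 were not called. The interaction was called for Dll1 (0.79) and not for Rbpj (0.39).

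**Figure D3:**
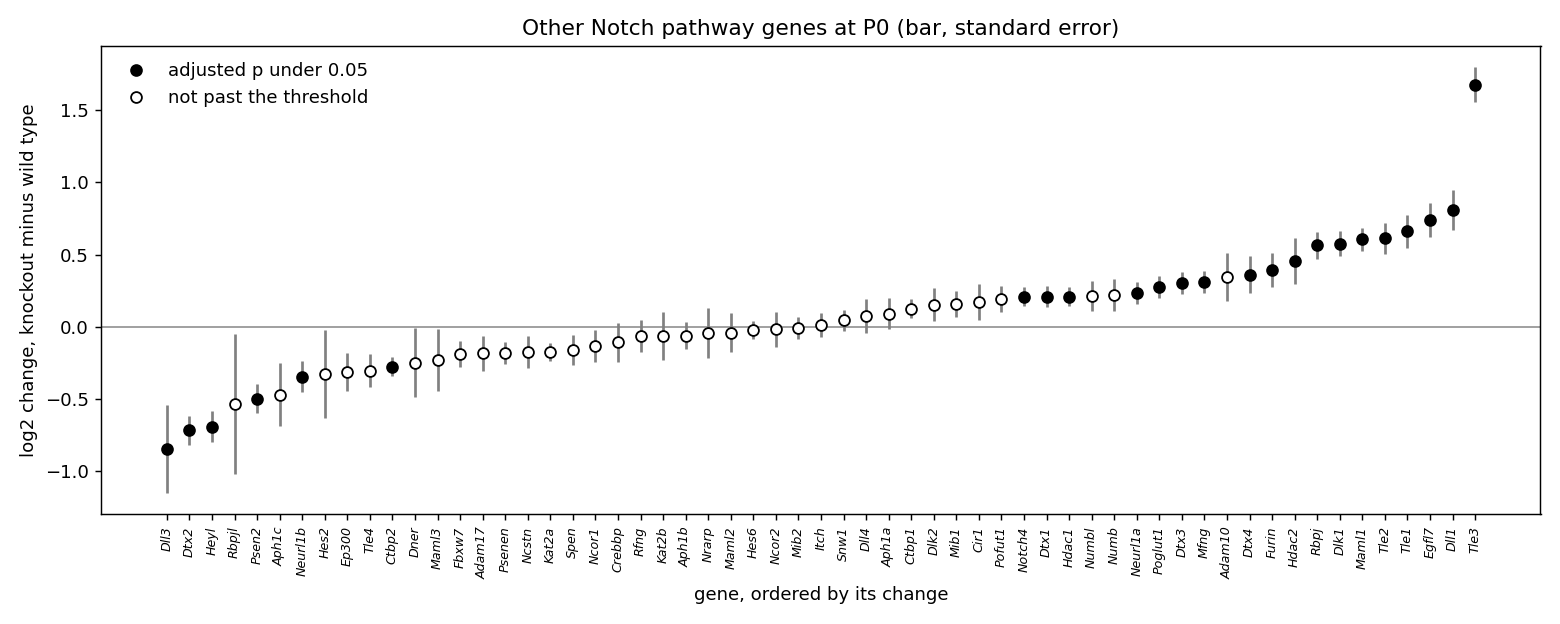
Log2 change at P0, knockout minus wild type (y axis), with its standard error for 59 of the 60 measured genes of the wider Notch pathway, ordered by change. Filled points passed an adjusted p of 0.05, 18 above 0 and 6 below among those plotted, with Tle3 at 1.68 the highest.

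Markers of several ovarian cell types moved between the same P0 groups, where 16.1% of all genes were called lower and 18.3% higher in knockout ovaries. Of the 10 markers of oocyte growth and the zona, 8 were lower in knockout ovaries, with summed signals (1 is the 75th percentile of the array) of 32.2 to 44 in knockout against 109 to 124 in wild type, and Bmp15 was not well above background in any P0 knockout sample. At P0 these markers moved with Jag1, Hey1 and Hey2. At E17.5, 4 of the 10 markers were lower in knockout ovaries, with a median change of -1.14, against 4.15% of all genes called. Jag1 (-0.19), Hey1 (-0.02) and Hey2 (0.17) were not called at that stage. Of the 10 endothelial markers 8 were higher in knockout, summing to 14.7 to 16.3 in knockout against 10.5 to 12.2 in wild type, and all 10 were well above background in both groups. Of the 5 surface epithelium markers 4 were higher (21.8 to 24 against 14.9 to 18.1 in wild type), and of the 9 pregranulosa markers 4 (111 to 128 against 90.7 to 104 in wild type). The called markers of these lists were thus on the side of Hes1 and Hes5 and opposite to Hey1 and Hey2. The other 5 pregranulosa markers were not called, and changes on that list ran from -0.35 to 1.32.

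The next counts of higher markers stand beside 18.3% of all genes called higher at P0. Of the 6 germ cell markers 2 were higher in P0 knockout ovaries, but their sums overlapped, at 146 to 177 in knockout and 160 to 162 in wild type. Of the 8 pericyte and smooth muscle markers 3 were higher, of 7 stroma markers 3 and of 6 macrophage markers 2, with sums of 32.1 to 36.8 against 28.8 to 33.8, 162 to 214 against 169 to 182, and 2.78 to 2.99 against 2.44 to 2.55 in wild type. Red cell markers, 0 of 7 called against 34.5% of all genes, summed to 64.1 to 72.7 in knockout and 44.8 to 142 in wild type. At E17.5 they summed to 205 to 432 in knockout and 135 to 205 in wild type. Genes of Sertoli and Leydig cells summed to 1.25 to 1.51 in P0 knockout and 1.39 to 1.44 in wild type, and mesonephros genes to 0.332 to 0.612 and 0.433 to 0.543. The part of any of these cell types in the Notch gene values was not tested.

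**Figure D4:**
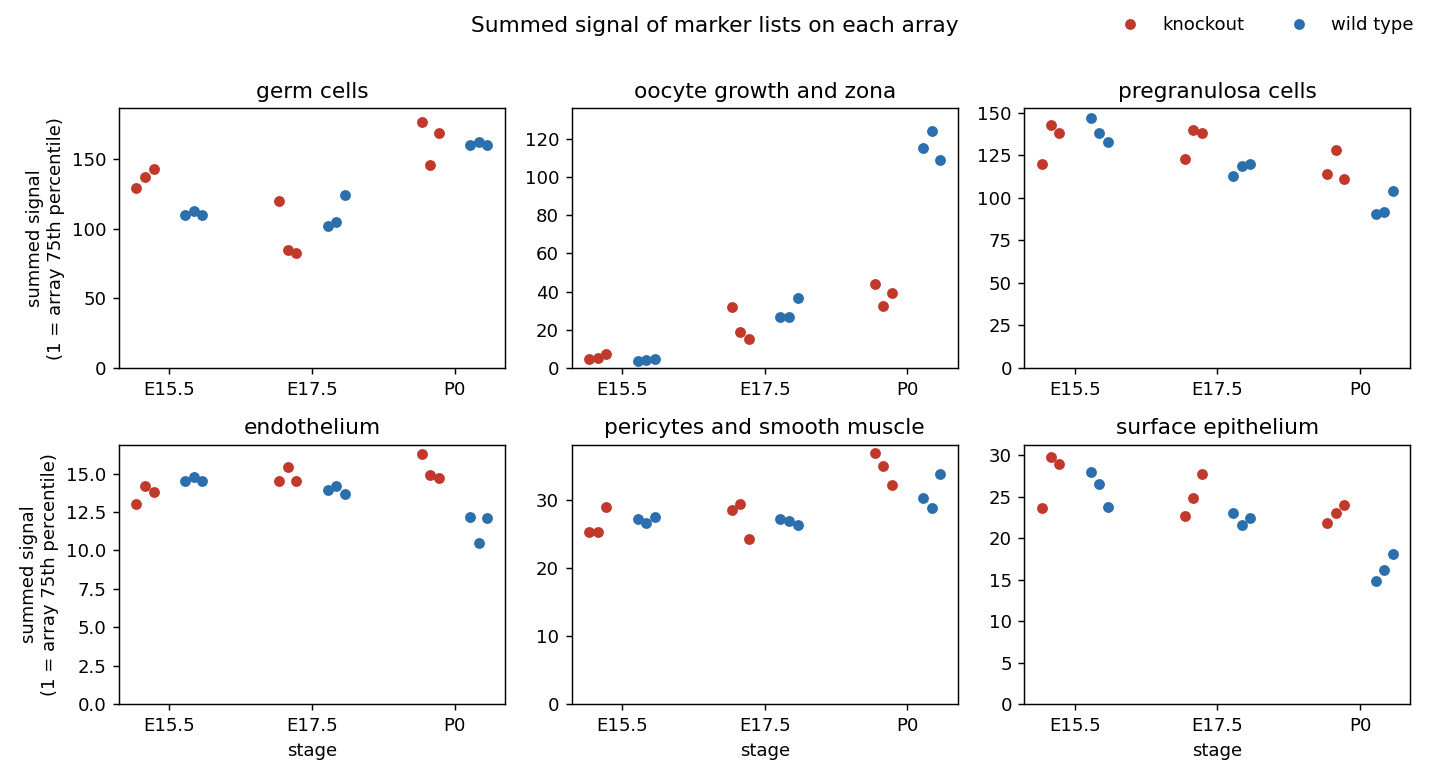
Summed signal of 6 marker lists (y axis, in units of the array's 75th percentile) on each array by stage, knockout left of wild type. At P0 the oocyte growth and zona sums are 32.2 to 44 in knockout and 109 to 124 in wild type ovaries, and the endothelium and surface epithelium sums are higher in every knockout sample.

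Over the 18 arrays, which share their tissue and split into stages, Jag1 and Hey2 correlated at r = 0.90, Hey1 and Hey2 at 0.83 and Jag1 and Hey1 at 0.70, while Hes5 correlated at -0.66 with Jag1, -0.75 with Hey1 and -0.70 with Hey2. Hes1 went with Jag2 at 0.87 and with Hes5 at -0.16. The genes most like Jag1 over the same arrays were Fam220a (0.98), Thbs4 (0.98) and Cmya5 (0.97), and those most like Hey2 were Ifi204 (0.94), Ak8 (0.94) and Ttyh1 (0.94). Most like Hey1 were Ccdc50 (0.94), Plekhg3 (0.92) and Pdzd2 (0.91), and most like Hes5 were Crygf (0.93), Sowahc (0.92) and Zfp867 (0.92). These are descriptions across 18 arrays in which stage and genotype are shared by all genes.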

How the data were processed

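Cy3-labelled RNA of 18 whole ovary samples was read on 1-colour Agilent mouse arrays. The deposited scanner files hold spot intensity, background-subtracted with Agilent Feature Extraction, whose version is 9.5 in the submitters' processing notes but 10.7.3.1 per the file headers. Log2 values of the deposited series matrix equalled these intensities up to a constant per array and served as an alternative. Not used were control probes and outlier-marked spots, 51 to 109 on an array, among them 1 spot of a Notch gene probe on each of E15.5 wild type replicate 2 and P0 knockout replicate 2, and no spot was saturated. Each log2 intensity was set against the 75th percentile of its own array. A probe had to be well above background in every sample of some group (29194 were), 62.5% to 75.1% of probes being above background per array, and the brightest probe stood for a gene. Groups and replicate numbers came from the labels. The number of arrays limits the precision.

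limma 3.58.1 in R 4.3.3 (lmFit and eBayes) fitted the 6 groups and the run over all 18 arrays, with Benjamini-Hochberg adjustment. It was tested on simulated data. The correlation of deviations from the group means of same-numbered arrays was 0.12, 0.40 and 0.45 at E17.5. It lay between -0.12 and 0.20 at the other stages. The run was not taken out of these deviations, and replicate 3 of both E17.5 groups was of run A, so they do not establish pairs. The reported fit holds no pair term, and the replicate number was a block only among the alternatives. Probe names were updated through RefSeq, and promoters came from RefSeq (GRCm38.p6), while probe positions are mm9 as in the files.

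The Notch genes and all lists were chosen with earlier results of these data known. All 10 Notch genes are named, of the other pathway genes Dll1, Dll3, Dll4, Notch4 and Rbpj plus up to 4 called genes with the smallest adjusted p in each comparison. Of that list 1 gene is not reported here. For the 4 Notch genes with the smallest adjusted p at P0 the 3 genes of highest correlation are named. Alternatives covered background correction, scaling, filters, probes of a gene, moderation, weights, run, slide, replicate block, stages in the fit, a 2-fold threshold and each array left out. Plots used Python 3.11.15 with matplotlib 3.10.9.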

Additional observations from a re-analysis of the deposited data

Results flagged for a closer look

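For 5 of the 10 Notch genes the interaction of stage and genotype, which tests whether the difference between knockout and wild type ovaries changed between stages, was called. Between E17.5 and P0 this change was -1.40 for Jag1 (adjusted p = 0.00481), -1.03 for Hey1 (0.00461), -1.49 for Hey2 (0.00258), 0.64 for Hes1 (0.0301) and 0.96 for Hes5 (0.0344). With the replicate number as a block the calls of Jag1 (0.0609), Hey1 (0.0515), Hes5 (0.0692) and Hes1 (0.201) ended, and the Hes1 and Hes5 calls ended in 14 and 15 of 34 alternatives. Between E15.5 and P0 it was -1.49 for Jag1 (adjusted p = 0.0017), -0.85 for Hey1 (0.00648), -1.19 for Hey2 (0.00394), 0.72 for Hes1 (0.0105) and 1.21 for Hes5 (0.00701). The E15.5 and P0 arrays were of different runs, and at both stages slide and genotype cannot be told apart.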

How the results depend on the processing

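Of 3430 repeats of the 100 results (10 Notch genes in 10 comparisons), 3282 kept the side of the threshold and 111 lost a call. Another 35 gained a call, and 2 gained one in the other direction. Direction was not always kept among the 3282, since changes not called could switch sign. Jag1 at E15.5, for example, ran from -0.14 to 0.11. The repeats are not independent of the reported fit or of each other. The series matrix values equal the same intensities up to a constant per array, and leaving out an array of another stage can leave a change as it was. For a result not called, keeping the side means only that it stayed not called. The 5 P0 calls held in all 34 alternatives other than the 2-fold threshold, under which 4 did, without Hes1. Lfng in knockout, E17.5 against E15.5, reversed to -0.53 with run B alone at E17.5 and to -0.67 without slide 3, against 0.05. Both settings leave out the run A arrays of E17.5, among them knockout replicate 3 with its high Lfng reading, and hold no run term. Under both, steps from E15.5 to E17.5 therefore also hold any difference between runs. The cause of the reversal was not tested. Among Notch genes, the calls at E15.5 numbered 1 with array weights, and at E17.5 1 with normexp, 1 with the stricter filter and 1 with trended, robust moderation. In wild type, E17.5 against E15.5, they numbered 5 with run B only, 5 without slide 3 and 1 at 2-fold, against 3, and P0 against E17.5 2 at 2-fold, against 5. In knockout, E17.5 against E15.5, they numbered 4 with no run term, 0 with slide as a fixed block, 6 with run B only, 6 without slide 3 and 1 at 2-fold, against 2. In knockout, P0 against E17.5, they numbered 2 with median scaling, 2 with no filter, 3 with the mean of probes, 3 with array weights, 3 with slide as a random block, 1 with it fixed, 2 with only these stages, 3 with run B only, 3 without slide 3 and 0 at 2-fold, against 5. For the interaction of P0 and E17.5 they numbered 3 with no filter, 1 with the replicate block, 3 with run B only, 3 without slide 3 and 3 at 2-fold, against 5, and for P0 and E15.5 3 at 2-fold, against 5. The other pathway genes called at E15.5, 1 in the reported fit, numbered 0 with median scaling, no filter, no run term, slide as a random block, only that stage, the replicate block, without slide 3 and at 2-fold, and 2 with the mean of probes and with array weights. At E17.5, 4 in the reported fit, they numbered 7 with normexp, the stricter filter and robust moderation, 2 with median scaling, 1 with no filter, no run term, array weights, slide fixed, run B only and without slide 3, and 0 with only that stage, the replicate block and at 2-fold. At P0, 25 in the reported fit, they numbered 15 with only that stage, 12 with the replicate block and 1 at 2-fold.

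Leaving out each array gave 0 to 0 Notch genes called at E15.5, 0 to 1 at E17.5 and 5 to 6 at P0 (6 without E15.5 knockout replicate 1), 0 to 1, 1 to 6 and 15 to 26 other pathway genes at these stages, and 0 to 4 and 4 to 5 Notch genes in the wild type steps. It gave 1 to 3 and 1 to 4 in the knockout steps (3 without E15.5 or P0 knockout replicate 1), and 0 to 0, 3 to 5 and 5 to 5 in the interactions of E17.5 with E15.5, P0 with E17.5 and P0 with E15.5. Same-numbered samples were not taken as pairs at any stage in the reported fit. With 3 arrays per group, changes within the printed intervals of genes not called are not excluded.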
